A study of Mus musculus with 15 samples.

Results

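The genes described here are 9 transcription factor genes and close relatives of the immediate early response, Fos, Fosl2, Jun, Junb, Jund, Atf3, Egr2, Egr3 and Ier2. They were taken by symbol from a list of 10 names and are 9 of the 11201 genes in the table; the remaining listed name, Egr1, was not analysed here. Messenger RNA was sequenced from ESdM, microglia grown in culture from embryonic stem cells of the C57BL/6-ATCC mouse line, all in the same N2 medium. Cells were stimulated for 24 h with LPS (lipopolysaccharide from bacterial cell walls, 500 ng/ml) together with IFNg (interferon gamma, 20 ng/ml), with IL4 (interleukin 4, 100 U/ml) or with TGFb (transforming growth factor beta, 50 ng/ml), 3 libraries each, or were left untreated, 6 libraries. The labels give 1 source of ES cells and no edited gene, and leave unsaid whether replicates were cultured apart; the spread behind each p-value is therefore that among the libraries at hand and could be technical alone.

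AP-1 is a family of dimeric transcription factors built from FOS, JUN and ATF proteins, which bind a short palindromic DNA site through a basic leucine zipper. FOS proteins cannot pair with themselves and need a JUN partner, JUN proteins can pair with themselves, and ATF3 mostly acts as a repressor. EGR proteins are zinc finger factors that bind GC-rich sites. In macrophages and microglia most of these genes are switched on within minutes of a stimulus through MAP kinases, SRF and CREB, and their transcripts are short-lived, so a sample taken after a day shows the sustained level and not the first wave.

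Promoters are shown for the members whose fold with TGFb was highest among those with a RefSeq promoter window (GRCm38.p6, 250 bases before to 50 after the start); windows were found for 7 of the 9 members. Both strands were searched for the AP-1 site TGANTCA, the cyclic AMP response element TGACGTCA, its shorter core TGACG, the EGR site GCGNGGGCG, the interferon gamma-activated sequence TTCNNNGAA, the SMAD palindrome GTCTAGAC, the CArG box bound by SRF and the NF-kB site. The core lies within the full element, and capitals mark every match. The Fos window is chr12:85473640-85473939 (plus strand), that of Fosl2 chr5:32136222-32136521 (plus), that of Junb chr8:84978699-84978998 (minus) and that of Egr2 chr10:67537619-67537918 (plus), the third of 5 windows for this gene.
Fos: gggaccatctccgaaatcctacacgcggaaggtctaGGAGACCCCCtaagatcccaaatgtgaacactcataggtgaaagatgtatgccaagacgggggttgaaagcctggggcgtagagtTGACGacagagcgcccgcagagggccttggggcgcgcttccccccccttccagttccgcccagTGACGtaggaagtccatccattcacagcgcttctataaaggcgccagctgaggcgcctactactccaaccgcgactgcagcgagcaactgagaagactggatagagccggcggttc
Fosl2: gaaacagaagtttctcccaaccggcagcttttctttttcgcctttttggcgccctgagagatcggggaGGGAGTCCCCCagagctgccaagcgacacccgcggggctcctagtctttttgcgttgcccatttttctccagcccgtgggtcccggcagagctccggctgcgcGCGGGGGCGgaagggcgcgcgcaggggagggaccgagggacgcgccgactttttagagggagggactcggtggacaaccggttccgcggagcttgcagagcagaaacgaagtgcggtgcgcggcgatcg
Junb: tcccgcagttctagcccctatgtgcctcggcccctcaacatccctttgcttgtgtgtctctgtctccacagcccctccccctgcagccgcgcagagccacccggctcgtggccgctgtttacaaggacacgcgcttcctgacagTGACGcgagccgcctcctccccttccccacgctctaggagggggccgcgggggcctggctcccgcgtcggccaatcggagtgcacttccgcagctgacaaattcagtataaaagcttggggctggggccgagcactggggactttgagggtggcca
Egr2: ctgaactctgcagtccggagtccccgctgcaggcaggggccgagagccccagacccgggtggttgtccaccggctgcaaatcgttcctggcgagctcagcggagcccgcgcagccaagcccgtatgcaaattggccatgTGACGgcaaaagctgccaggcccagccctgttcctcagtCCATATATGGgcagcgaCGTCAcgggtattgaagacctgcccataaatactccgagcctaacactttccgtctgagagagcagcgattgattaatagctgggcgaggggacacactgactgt
In Fos the capitals are an NF-kB-type match at bases -214 to -205 from the start and core matches at -129 to -125 and -66 to -62. Fosl2 had overlapping NF-kB-type matches between -182 and -172 and an EGR match at -79 to -71, and Junb had a core match at -106 to -102. Egr2 had a CArG box at -72 to -63 between core matches at -111 to -107 and -55 to -51. The Egr2 window shown was picked because it held matches; windows 4 and 5 overlap it, window 2 held a different CArG box, and window 1, at chr10:67535249-67535548, held none of these letters. Atf3 had 1 core match, at -7 to -3, and the Jun and Jund windows held none of these letters. The Jund window, chr8:70697489-70697788 (plus), ends before the start of the gene in GENCODE M21, at 70698949. It therefore does not describe the sequence at that start. The Fosl2 and Egr2 windows shown lie inside their genes, past the GENCODE M21 starts at 32135801 and 67535475. The Atf3 window, chr1:191183284-191183583 (minus), also lies inside its gene, which starts at 191218039 on that strand. These windows describe RefSeq starts within the gene. Among 32851 promoter windows of the same length, the core was found in 20.8%, the AP-1 site in 7.81%, the full element in 1.79%, the EGR site in 5.55%, the interferon sequence in 8.3%, the SMAD palindrome in 0.213%, the CArG box in 1.63% and the NF-kB site in 4.51%. A match is a description of the sequence and was not tested for binding.

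Values are normalized read counts, that is reads divided by 1 factor per library, and whole reads recovered from them summed to 2682564 to 18676181 per library, with a median of 7589049. Fold changes are differences of log2(value + 1) with their standard error (SE), and adjusted p-values are from limma over 11138 genes with Benjamini-Hochberg adjustment, called below 0.05. Markers of microglia and macrophages were present for 10 of 12 listed genes, with P2ry12 and Fcrls without a row. Csf1r lay between 1581 and 3223 in every library, while Tmem119 was 82.3 ± 7.26 with TGFb and at most 11.2 in any other library. Cx3cr1 was 39.5 ± 6.73 with TGFb. It was near the lowest value of the table, 1, with LPS+IFNg (3.30 ± 3.99), with IL4 (1.49 ± 0.781) and untreated (2.60 ± 2.28). None of 8 stem cell, 8 neuronal or 7 fibroblast markers had a row, while 3 of 7 astrocyte, 3 of 7 oligodendrocyte and 2 of 6 endothelial markers did. The astrocyte markers summed to 1678 to 1899 in TGFb libraries, 1392 to 1484 in LPS+IFNg libraries and 1703 to 1837 in IL4 libraries, against 1446 to 1612 in untreated libraries, with Gfap and Aqp4 without a row, and the oligodendrocyte markers summed to between 166 and 239 in every library. The endothelial sum, nearly all from Vwf, was 694.6 to 802 with TGFb, 113 to 127 with LPS+IFNg and 201 to 244 with IL4, against 179.8 to 237 untreated; whether cells of these types bear on the members was not tested. LPS+IFNg replicate 3 stood apart from its group: the chi-square per degree of freedom of its reads was 26.4 and 27.0 against the other LPS+IFNg libraries, while pairs in all groups without it gave 1.42 to 7.63.

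With TGFb, 7 of the 9 members rose and none fell, namely Fos, Fosl2, Junb, Jund, Egr2, Egr3 and Ier2, while Jun and Atf3 were not called. Of all genes tested, 47.5% were called in this comparison, 24.1% were higher and 23.4% were lower. The number that rose was 6 after a lowess correction for GC content and 5 with GC-rich genes as a covariate, where Jund and Ier2 were not called. With LPS+IFNg, Atf3, Fosl2 and Junb rose and Fos, Egr3 and Ier2 fell, against 58.9% of all genes called, 29.5% higher and 29.4% lower; without LPS+IFNg replicate 3, Egr2 was called lower as well. With IL4, only Atf3 was called, and it was higher, against 17.2% of all genes called, 9.89% higher and 7.33% lower. The median log2 fold change of the 9 members was 1.23 with TGFb, -0.16 with LPS+IFNg and 0.31 with IL4, and that of all genes was 0.01, 0 and 0. All 3 comparisons share the untreated libraries. The libraries of stimulated and untreated cells did not overlap for 6 members with TGFb (46.4% of all genes), 6 with LPS+IFNg (50.1%) and 2 with IL4 (23%). The summed level of the microglia and macrophage markers moved too, with 26260 to 27870 in the TGFb libraries, 17560 to 18840 in the LPS+IFNg libraries and 22810 to 23050 in the IL4 libraries, against 19910 to 21270 in the untreated libraries. Of its 10 genes 6 rose and none fell with TGFb, 1 rose and 5 fell with LPS+IFNg, and 3 rose and 1 fell with IL4. Abundant genes such as Cd68 (7880 ± 1000 with LPS+IFNg) weigh most in the sum, and the gene that rose with LPS+IFNg was Aif1, with 219 ± 33.1, against 24.8 ± 7.78 untreated. The part of these markers in the members' values was not tested, and bulk data cannot tell apart fewer cells of a type and less RNA per cell. With the values rescaled to the same total, the median of all genes was -0.12 for LPS+IFNg over untreated, and the calls over all genes split into 2029 higher and 3341 lower with TGFb (2686 and 2604 as deposited), 2435 and 4416 with LPS+IFNg (3284 and 3278) and 748 and 1449 with IL4 (1101 and 816). After quantile normalization they split into 2652 higher and 4179 lower with LPS+IFNg. The members' counts in each direction were unchanged under both scalings.

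**Figure D1:**
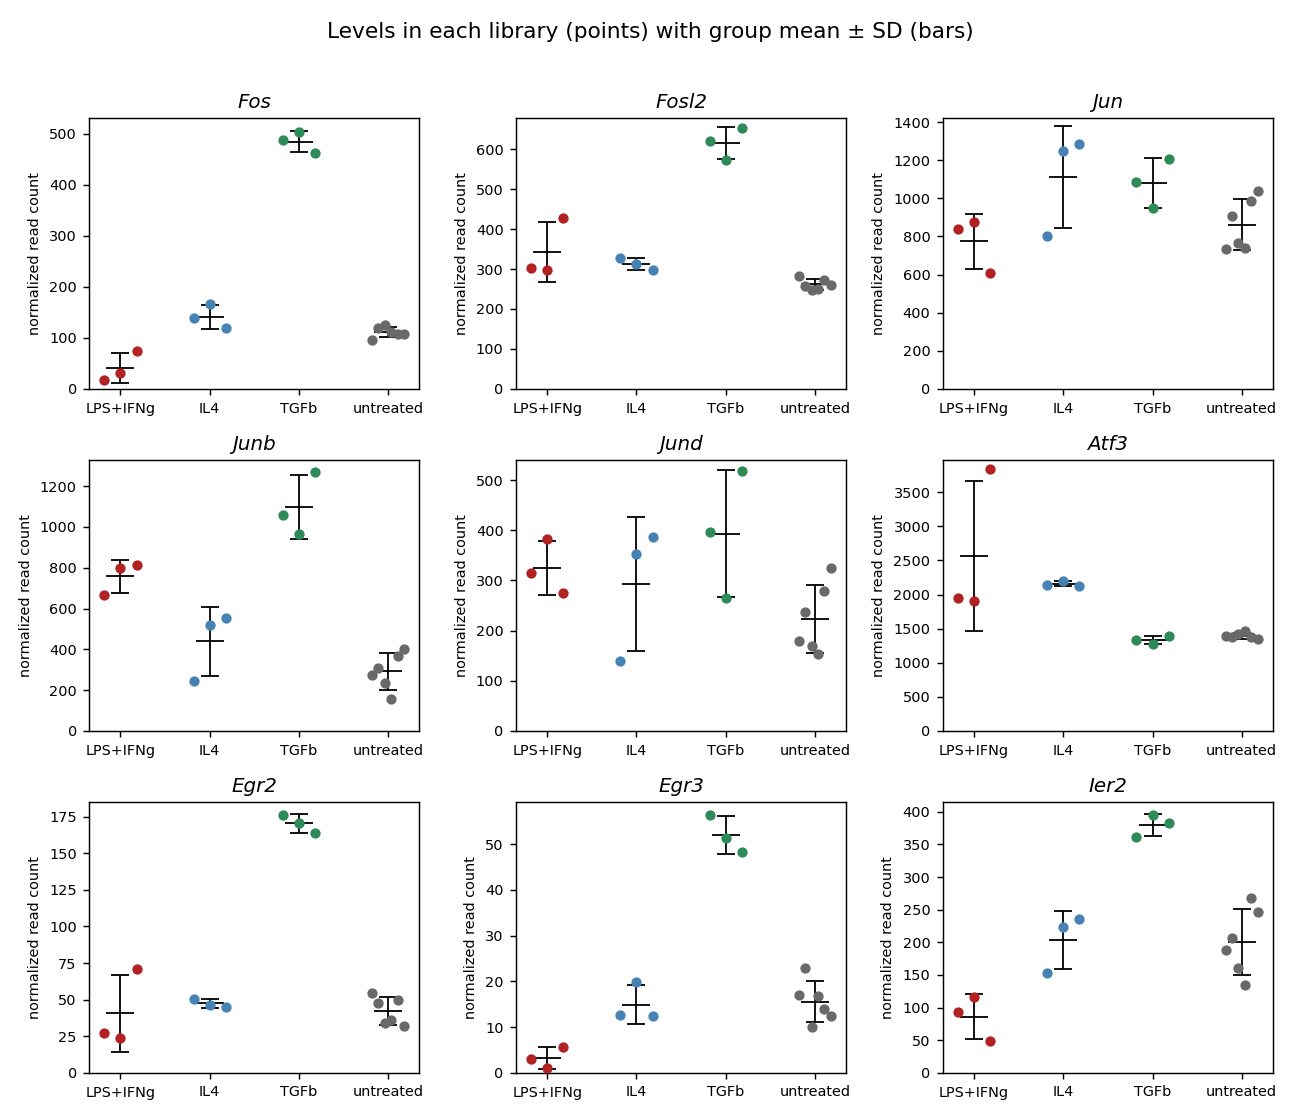
Normalized read count (y axis, from 0) of each of the 9 genes in each library (points), with the group mean and SD (bars), for LPS+IFNg, IL4, TGFb (n = 3 each) and untreated cells (n = 6). The 3 TGFb points lie above all others for Fos, Fosl2, Junb, Egr2, Egr3 and Ier2, and 1 LPS+IFNg library stands above the other 2 for Fos, Fosl2, Atf3 and Egr2.

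**Figure D2:**
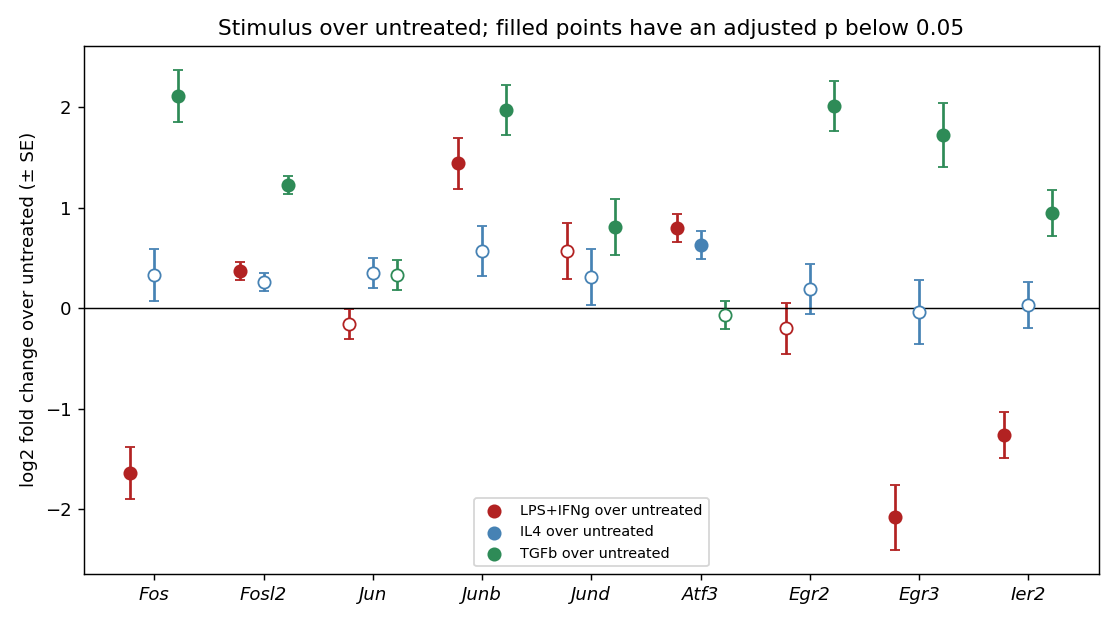
Log2 fold change over untreated cells (y axis) with its SE for each gene and stimulus, n = 3 stimulated and n = 6 untreated libraries; filled points have an adjusted p below 0.05. Fos, Egr3 and Ier2 lie below 0 with LPS+IFNg and above 0 with TGFb, and all IL4 points lie between -0.04 and 0.63.

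Fos encodes the founding FOS protein, the partner that gives AP-1 its strongest activity. The gene lies at chr12:85473890-85477273 on GRCm38, plus strand, and is protein coding in GENCODE M21, as are all 9. Its normalized read count was 17.8, 31.8 and 74.5 with LPS+IFNg, 139, 167 and 119 with IL4 and 488, 504 and 462 with TGFb, and in untreated cells the lowest was 96.2, the median 110.3 and the highest 126. Every LPS+IFNg library lay below, and every TGFb library above, all untreated libraries, while IL4 libraries overlapped them. Fos rose 4.35-fold with TGFb over untreated (log2 2.11, SE 0.26, adjusted p = 2.31e-06) and fell with LPS+IFNg, being 2.69-fold lower than in untreated cells (log2 -1.64, SE 0.26, adjusted p = 2.69e-05). With IL4 it was not called (log2 0.33, adjusted p = 0.438). Between TGFb and LPS+IFNg the means differed most, and Fos was 11.7-fold lower with LPS+IFNg than with TGFb (log2 -3.75, adjusted p = 3.13e-09). The LPS+IFNg group varied most, with a coefficient of variation of 71.4%, against 4.34% in TGFb and 9.26% in untreated libraries. Without LPS+IFNg replicate 3 the log2 fold change over untreated was -2.17, and without LPS+IFNg replicate 1 it was -1.17.

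Fosl2 encodes FRA2, a FOS relative that lacks the strong activation domain of FOS and tends to persist longer after a stimulus. The gene spans chr5:32135801-32157842 on the plus strand. It had 302, 297 and 428 normalized reads with LPS+IFNg, 326, 313 and 297 with IL4 and 621, 572 and 653 with TGFb, against 248 to 283 with a median of 259 in untreated cells. No stimulated library overlapped the untreated range. Fosl2 rose 2.35-fold with TGFb over untreated (log2 1.23, SE 0.09, adjusted p = 5.19e-09). It rose 1.31-fold with LPS+IFNg (log2 0.37, SE 0.09, adjusted p = 0.00263), but this value rests largely on replicate 3: without it the log2 fold change was 0.20 (adjusted p = 0.0275), and without 4 libraries with low values of GC-rich genes (LPS+IFNg replicate 3, IL4 replicate 1 and untreated replicates 3 and 4) it was 0.16 and not called (adjusted p = 0.072). With IL4 the log2 fold change was 0.26 and was not called (adjusted p = 0.0719). With only the IL4 and untreated libraries in the fit, Fosl2 was called higher with IL4 (log2 0.26, adjusted p = 0.013). The same held with GC-rich genes as a covariate (log2 0.28, adjusted p = 0.0323). Unlike Fos, which fell with LPS+IFNg, this gene was not lower with any stimulus. LPS+IFNg and IL4 did not differ by the test (log2 0.11, adjusted p = 0.399).

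Jun encodes c-JUN, the JUN protein that activates most strongly, and occupies chr4:95049034-95052222 on the minus strand. It had 837, 875 and 609.7 normalized reads with LPS+IFNg, 802, 1248 and 1285 with IL4 and 1087, 949.7 and 1207 with TGFb, and 734 to 1039.6 with a median of 836 in untreated cells. Every stimulus overlapped the untreated range, and no stimulus was called: the log2 fold change over untreated was -0.16 with LPS+IFNg (adjusted p = 0.374), 0.35 with IL4 (adjusted p = 0.124) and 0.33 with TGFb (adjusted p = 0.0744). Jun was lower with LPS+IFNg than with IL4 (log2 -0.51, SE 0.17, adjusted p = 0.017) and than with TGFb (log2 -0.49, SE 0.17, adjusted p = 0.0185). Both of these calls were lost without LPS+IFNg replicate 3 (adjusted p = 0.0893 and 0.097), and the first also without IL4 replicate 2 or 3 (adjusted p = 0.0851 and 0.0929), the second also without TGFb replicate 3 (adjusted p = 0.0804). Without IL4 replicate 1, Jun was called higher with IL4 than in untreated cells (log2 0.57, adjusted p = 0.0122), and without untreated replicate 6 it was called higher with TGFb (log2 0.39, adjusted p = 0.0407).

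Junb encodes JUNB, a weaker activator than c-JUN that can oppose it, and lies at chr8:84974484-84978718 on the minus strand. It had 665, 797 and 812 normalized reads with LPS+IFNg, 244, 521 and 553 with IL4 and 1059, 967 and 1270.5 with TGFb, against 157 to 403 with a median of 293 in untreated cells. The LPS+IFNg and TGFb libraries all lay above every untreated library, and the lowest IL4 library lay within the untreated range. Junb rose 3.77-fold with TGFb over untreated (log2 1.97, SE 0.25, adjusted p = 3.34e-06) and 2.6-fold with LPS+IFNg over untreated (log2 1.44, SE 0.25, adjusted p = 7.3e-05). With IL4 it was not called (log2 0.57, adjusted p = 0.137), but without IL4 replicate 1 it was (log2 0.94, adjusted p = 0.0117). It was higher with LPS+IFNg than with IL4 (log2 0.87, SE 0.29, adjusted p = 0.0152), a call that was lost without IL4 replicate 1 (log2 0.49, adjusted p = 0.123). LPS+IFNg and TGFb libraries did not overlap but were not called different (log2 -0.53, adjusted p = 0.118). Junb was called lower with LPS+IFNg with only these groups in the fit (adjusted p = 0.00492) and with edgeR (log2 -0.56, adjusted p = 0.0468). Without the 4 libraries with low values of GC-rich genes it was called too (log2 -0.58, adjusted p = 0.000559). With GC-rich genes as a covariate the sign turned (log2 0.46, adjusted p = 0.159).

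Jund encodes JUND, the JUN protein usually made at a steady level rather than on demand, and lies at chr8:70698949-70700616 on the plus strand. It had 315, 383 and 275 normalized reads with LPS+IFNg, 139, 353 and 387 with IL4 and 397, 265 and 518 with TGFb, against 154 to 324 with a median of 208 in untreated cells. All 3 stimuli overlapped the untreated range. Jund was called higher with TGFb (log2 0.81, SE 0.28, adjusted p = 0.0252) and was not called with LPS+IFNg (log2 0.57, adjusted p = 0.0909) or IL4 (log2 0.31, adjusted p = 0.524). The TGFb call did not hold without TGFb replicate 1 (adjusted p = 0.0779), TGFb replicate 3 (adjusted p = 0.16), untreated replicate 3 (adjusted p = 0.0506) or untreated replicate 4 (adjusted p = 0.0533). It was also lost in limma without the trend (adjusted p = 0.0593) and without the 3 shallowest libraries (adjusted p = 0.054). Of 23 alternative settings, 15 kept its direction and call. Without untreated replicate 6, Jund was called with LPS+IFNg (log2 0.69, adjusted p = 0.0442), and without IL4 replicate 1 it was called with IL4 (log2 0.78, adjusted p = 0.0483).

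In several IL4 and untreated libraries Jun, Junb, Jund and Ier2 deviated from their group mean in the same direction as GC-rich genes did. IL4 replicate 1 lay below its group mean by 0.44 for Jun, 0.75 for Junb, 0.93 for Jund and 0.39 for Ier2 on the log2 scale, and the median deviation of 102 genes with at least 62% GC in their longest transcript was -0.20 there, against 0.01 for 9029 other genes. Untreated replicate 4 was likewise low, by 0.82 for Junb and 0.48 for Jund, with a GC-rich median of -0.22, and untreated replicate 6 was high, with 0.53 for Junb, 0.59 for Jund and a GC-rich median of 0.18. Other libraries departed from this. LPS+IFNg replicate 3, with a GC-rich median of -0.21, was low for Jun (-0.33) and Ier2 (-0.72) but not for Junb (0.10), and in TGFb libraries Jund ran from -0.52 to 0.45 while the GC-rich median stayed between -0.06 and 0.02. Transcript GC was 67.1% for Jund, 62.6% for Junb, 60.9% for Ier2 and 55.5% for Jun, and 51.3% to 53.1% for the other members; the median of 10682 genes was 49.7%. The longest transcript of these same 4 genes has a single exon, which holds for 6.15% of all genes. Junb, Jund and Ier2 lie on chromosome 8, where 311632 bases lie between Ier2 and Junb.

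**Figure D3:**
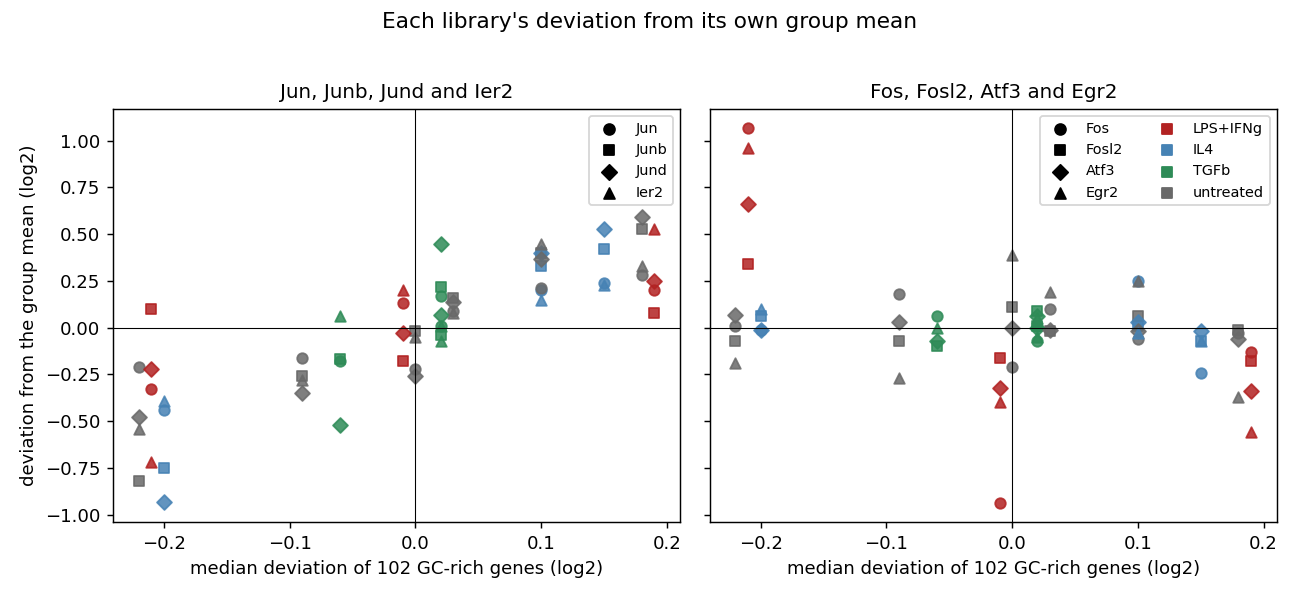
Deviation of each library from its own group mean (y axis, log2) for Jun, Junb, Jund and Ier2 (left) and for Fos, Fosl2, Atf3 and Egr2 (right), against the median deviation of 102 GC-rich genes in that library (x axis, log2); marker shape is the gene and colour the group, and Egr3 is left out for its few reads. On the left most points run from low left to high right, with Jund in IL4 replicate 1 at -0.93; on the right the points far from 0 are mainly those of the 3 LPS+IFNg libraries.

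The GC-rich genes also differed between groups. Relative to the mean of all libraries their median was 0.23 to 0.30 in the TGFb libraries, -0.39 to 0.03 in the LPS+IFNg libraries, -0.22 to 0.15 in the IL4 libraries and -0.28 to 0.14 in the untreated libraries, so the TGFb libraries lay above all others. Their median log2 fold change was 0.33 for TGFb over untreated, and that of the other genes was 0. With this GC-rich median as a covariate, a setting chosen after seeing the data, the log2 fold change for TGFb over untreated was -0.06 for Jund (adjusted p = 0.861), 0.18 for Ier2 (adjusted p = 0.3) and -0.15 for Jun (adjusted p = 0.238). That of Junb was 1.25 and remained called (adjusted p = 8.93e-05), as did Fos at 2.5 (adjusted p = 3.94e-06) and Egr2 at 2.41 (adjusted p = 4.12e-06). The lowess correction for GC content, also chosen after seeing the data, gave 0.76 for Ier2, which remained called (adjusted p = 0.0025), and 0.46 for Jund, which did not (adjusted p = 0.0644). The covariate separates the TGFb libraries from the others, so in that fit a change with TGFb and a shift of GC-rich genes cannot be told apart. In LPS+IFNg over untreated, the same covariate gave Jund a log2 fold change of 0.90 (adjusted p = 0.000145) and Ier2 -0.97 (adjusted p = 2.11e-07).

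Atf3 encodes a stress-induced ATF protein that dampens inflammatory genes in macrophages, and spans chr1:191170296-191218039 on the minus strand. It had 1943, 1910.2 and 3838 normalized reads with LPS+IFNg, 2144, 2198 and 2129 with IL4 and 1332, 1268 and 1386 with TGFb, against 1341 to 1463 with a median of 1386 in untreated cells. All LPS+IFNg and IL4 libraries lay above the untreated range, and the TGFb libraries overlapped it. Atf3 rose 1.84-fold with LPS+IFNg (log2 0.80, SE 0.14, adjusted p = 8.38e-05) and 1.55-fold with IL4 (log2 0.63, SE 0.14, adjusted p = 0.004), and was not called with TGFb (log2 -0.07, adjusted p = 0.708). It was the 1 member called with IL4, and in TGFb comparisons it was higher with LPS+IFNg (log2 0.87, adjusted p = 0.000136) and with IL4 (log2 0.70, adjusted p = 0.00205). With GC-rich genes as a covariate, LPS+IFNg over TGFb was 0.47 and not called (adjusted p = 0.0504). Without LPS+IFNg replicate 3 it was 0.54 and remained called (adjusted p = 7.21e-09). LPS+IFNg replicate 3 held the highest value of the 15 libraries. Without it the log2 fold change of LPS+IFNg over untreated was 0.47 (adjusted p = 1.44e-08), and LPS+IFNg over IL4 turned to -0.16 (adjusted p = 0.00679) where it had been 0.17 (adjusted p = 0.392).

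Egr2 encodes a zinc finger factor that follows immune receptor signals and takes part in macrophage maturation, and lies at chr10:67535475-67542188 on the plus strand. It had 27.1, 24.1 and 71.1 normalized reads with LPS+IFNg, 50.8, 46.6 and 45.2 with IL4 and 176, 171 and 164 with TGFb, against 32.0 to 54.7 with a median of 41.9 in untreated cells. The TGFb libraries lay far above all others, the IL4 libraries lay within the untreated range, and of the LPS+IFNg libraries 2 lay below that range and 1 above it. Egr2 rose 4.02-fold with TGFb over untreated (log2 2.01, SE 0.25, adjusted p = 3.12e-06). It was not called with IL4 (log2 0.19, adjusted p = 0.679) or LPS+IFNg (log2 -0.20, SE 0.25, adjusted p = 0.514). The LPS+IFNg value turns on 1 library: without replicate 3 Egr2 was called lower than untreated (log2 -0.68, adjusted p = 0.00497) and lower than IL4 (log2 -0.87, adjusted p = 0.00173), and without replicate 2 the log2 fold change over untreated was 0.08.

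Egr3 encodes a close relative that Egr factors themselves induce in lymphocytes and neurons, and lies at chr14:70077203-70082614 on the plus strand. It was the member with the fewest reads. Its normalized read count was 3.10, 1 and 5.65 with LPS+IFNg, 12.55, 19.8 and 12.4 with IL4 and 56.3, 51.2 and 48.2 with TGFb, against 9.93 to 23.0 with a median of 15.4 in untreated cells. The value of 1 is the floor of the table, and the 3 LPS+IFNg libraries held 9 reads in all, against 85 in the 6 untreated libraries. Egr3 rose 3.34-fold with TGFb over untreated (log2 1.72, SE 0.32, adjusted p = 0.000232) and fell with LPS+IFNg (log2 -2.08, SE 0.32, adjusted p = 1.92e-05), with no overlap of libraries in either case. This log2 scale understates folds at such low values. IL4 did not differ from untreated by the test (log2 -0.04, SE 0.32, adjusted p = 0.951).

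Ier2 encodes a short nuclear protein without a DNA-binding zipper that is induced along with FOS and JUN, and lies at chr8:84661331-84662852 on the minus strand. It had 93.0, 117 and 48.5 normalized reads with LPS+IFNg, 153, 223 and 235 with IL4 and 361, 395 and 383 with TGFb, against 134 to 267 with a median of 198 in untreated cells. LPS+IFNg libraries lay below and TGFb libraries above every untreated library, and IL4 libraries lay inside the untreated range. Ier2 fell with LPS+IFNg, being 2.33-fold lower than in untreated cells (log2 -1.26, SE 0.23, adjusted p = 0.000114), and rose 1.89-fold with TGFb over untreated (log2 0.95, SE 0.23, adjusted p = 0.00222). With IL4 the log2 fold change was 0.03 (adjusted p = 0.947). Without LPS+IFNg replicate 3, its lowest library, the log2 fold change of LPS+IFNg over untreated was -0.90 (adjusted p = 0.000736). Ier2 was lower with IL4 than with TGFb (log2 -0.92, adjusted p = 0.00982), which was not called without IL4 replicate 1 (log2 -0.73, adjusted p = 0.0587).

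The stimuli were also compared with each other. Of the 9 members, 1 was higher and 6 were lower with LPS+IFNg than with TGFb (62.6% of all genes called, 31.9% higher and 30.8% lower), 1 was higher and 6 were lower with IL4 than with TGFb (39.7% called, 20.7% higher and 19% lower), and 1 was higher and 4 were lower with LPS+IFNg than with IL4 (57.7% called, 28.8% in each direction). Libraries did not overlap for 8 members between LPS+IFNg and TGFb (66.4% of all genes), 7 between IL4 and TGFb (55.8%) and 4 between LPS+IFNg and IL4 (61.8%). The member called higher was Atf3 against TGFb in both cases, and Junb for LPS+IFNg against IL4. Egr3 was 16-fold lower by group means with LPS+IFNg than with TGFb (log2 -3.80, SE 0.37, adjusted p = 4.98e-08), and Fos 3.42-fold lower with LPS+IFNg than with IL4 (log2 -1.97, adjusted p = 1.73e-05). In Fosl2 the log2 fold change was -0.86 for LPS+IFNg over TGFb and -0.97 for IL4 over TGFb (adjusted p = 1.48e-06 and 9.07e-07).

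The order of the group means differed between members. Fos, Egr2 and Ier2 ran TGFb, IL4, untreated, LPS+IFNg from high to low, and in all 3 the neighbours IL4 and untreated did not differ by the test. For Egr2 the step between untreated and LPS+IFNg was not called either. Egr3 ran TGFb, untreated, IL4, LPS+IFNg, and only its middle step was not called. Fosl2, Junb and Jund ran TGFb, LPS+IFNg, IL4, untreated; the called steps were TGFb to LPS+IFNg in Fosl2 and LPS+IFNg to IL4 in Junb, and in Jund no step between neighbours was called. Jun ran IL4, TGFb, untreated, LPS+IFNg, with no neighbouring pair called, and Atf3 ran LPS+IFNg, IL4, untreated, TGFb, with only the step between IL4 and untreated called.

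Levels can be compared between genes only per length. Per kilobase of the longest transcript, untreated cells held 703.5 ± 21.4 normalized reads of Atf3, 270.4 ± 42.2 of Jun, 161 ± 49.8 of Junb, 134 ± 40.8 of Jund, 132 ± 33.1 of Ier2, 52.9 ± 4.9 of Fos, 40.0 ± 2.06 of Fosl2, 14.3 ± 3.16 of Egr2 and 3.95 ± 1.15 of Egr3 (SD, n = 6). The repressor Atf3 thus had the most transcript at rest and the EGR genes the least. The order depends in part on the transcript chosen: with the median annotated length the untreated level of Fos per kilobase was 136.9, above the 134 of Jund. Within the summed per-kilobase level of the 6 AP-1 genes among the members, Fos and Fosl2 together made up 15% ± 1.72 with TGFb, 3.19% ± 0.316 with LPS+IFNg, 5.92% ± 1.07 with IL4 and 6.86% ± 0.601 in untreated cells (SD). Atf3 made up 30.9% ± 1.84 with TGFb, 56.6% ± 10.1 with LPS+IFNg, 55.9% ± 7.78 with IL4 and 52.0% ± 5.61 in untreated cells. Junb made up 27.8% ± 1.13 with TGFb, 19.3% ± 3.32 with LPS+IFNg, 12% ± 3.43 with IL4 and 11.7% ± 2.82 in untreated cells. With the median annotated length the share of Fos and Fosl2 was 25.9% with TGFb, 5.64% with LPS+IFNg, 11.6% with IL4 and 13.3% in untreated cells, that of Atf3 23.3%, 50.5%, 49.8% and 46.1% in the same order, and that of Junb 31.7%, 26%, 16.2% and 15.6%. The sum leaves out other AP-1 genes, such as Batf2 (733 ± 593 normalized reads with LPS+IFNg) and Atf2 (588 ± 38.8 untreated), so it is not the whole family. These shares describe transcripts, not proteins or dimers, and were not tested.

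Other gene lists are given by counts, which are read against the shares of all genes called: 29.5% higher and 29.4% lower with LPS+IFNg, 9.89% and 7.33% with IL4, and 24.1% and 23.4% with TGFb. Of 11 tested AP-1 and Maf relatives, 7 rose and 2 fell with LPS+IFNg, 1 rose and 1 fell with IL4, and 3 rose and 2 fell with TGFb, with median log2 fold changes of 0.46, -0.01 and 0.01; the IL4 and TGFb counts, 2 and 5 of 11, are near the 17.2% and 47.5% of all genes called. Of the FOS relatives in this list, Fosb rose with TGFb (log2 2.13, SE 0.44, adjusted p = 0.000618), with both group means below 50 normalized reads. Unlike Fos, Fosb was not called with LPS+IFNg (log2 0.23, adjusted p = 0.67). Fosl1 was not called with TGFb (log2 -0.49, adjusted p = 0.144). Maff, a small Maf protein, rose with LPS+IFNg (247 ± 14.7 normalized reads) and with TGFb (144 ± 40.5), against 55.3 ± 14.3 untreated. Batf2 had 733 ± 593 with LPS+IFNg and lay at or near the floor in untreated cells. Of 2 tested EGR co-repressors, 1 rose and 1 fell with LPS+IFNg, none was called with IL4 and 1 rose with TGFb. Nab2, which EGR proteins induce and which then restrains them, fell to 215 ± 10.6 with LPS+IFNg and rose to 783 ± 1.45 with TGFb, against 408 ± 39.1 untreated (adjusted p = 5.78e-09 and 9.33e-09). Nab1 rose with LPS+IFNg (945 ± 57.5), against 650 ± 37.7 untreated (adjusted p = 2.26e-07). With TGFb Nab1 was not called (log2 -0.02, adjusted p = 0.815).

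Genes upstream were counted next. Among 6 tested genes for SRF and its cofactors, 1 rose and 4 fell with LPS+IFNg, 1 rose and 1 fell with IL4, and 2 rose and 1 fell with TGFb, with medians of -0.26, 0.05 and -0.05, against 58.9%, 17.2% and 47.5% of all genes called. Srf itself was lower with LPS+IFNg (448 ± 56.3) and with TGFb (499.5 ± 19.4), against 575 ± 38.4 untreated. Elk3, an SRF partner, rose to 780.1 ± 41.2 with TGFb, against 341 ± 43.6 untreated. Of 19 tested MAP kinase genes, 7 rose and 7 fell with LPS+IFNg, 2 rose and 2 fell with IL4, and 3 rose with TGFb, with medians of 0.11, -0.01 and 0.08. The IL4 count is near the 17.2% of all genes called and the TGFb count below the 47.5%, but the number called with TGFb depended on the setting: it was 5 after quantile normalization, 7 after rescaling to the same total or without the 4 libraries with low values of GC-rich genes, 8 after the lowess correction or with the TGFb and untreated libraries alone in the fit, and 2 without TGFb replicate 3. Mapkapk2, a kinase that stabilises inflammatory transcripts, rose with LPS+IFNg (8624 ± 392), against 3078 ± 146 untreated. Mapk3, which encodes ERK1, rose with TGFb (1119 ± 31.6), against 654.5 ± 27.9 untreated.

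Of 24 other immediate early genes tested, 12 rose and 4 fell with LPS+IFNg, 7 rose and 1 fell with IL4, and 11 rose and 2 fell with TGFb, with median log2 fold changes of 0.58, 0.20 and 0.30. The 16 called with LPS+IFNg and the 13 with TGFb are near the 58.9% and 47.5% of all genes called. Arc fell with LPS+IFNg (log2 -1.59, adjusted p = 5.06e-08), as Fos, Egr3 and Ier2 did. Gadd45a, a DNA damage response gene, rose to 377 ± 141 with LPS+IFNg and to 96.3 ± 15.3 with IL4, against 50.1 ± 9.47 untreated, and rose with TGFb too (log2 1.13, adjusted p = 5.74e-05). Plk2, a polo-like kinase, went opposite ways, with 5335 ± 389 with LPS+IFNg and 1166 ± 92.3 with TGFb, against 2028 ± 79.6 untreated, both called. Sgk1, a kinase gene, had 135 ± 19.3 with TGFb, against 2.96 ± 2.16 untreated, close to the floor.

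**Figure D4:**
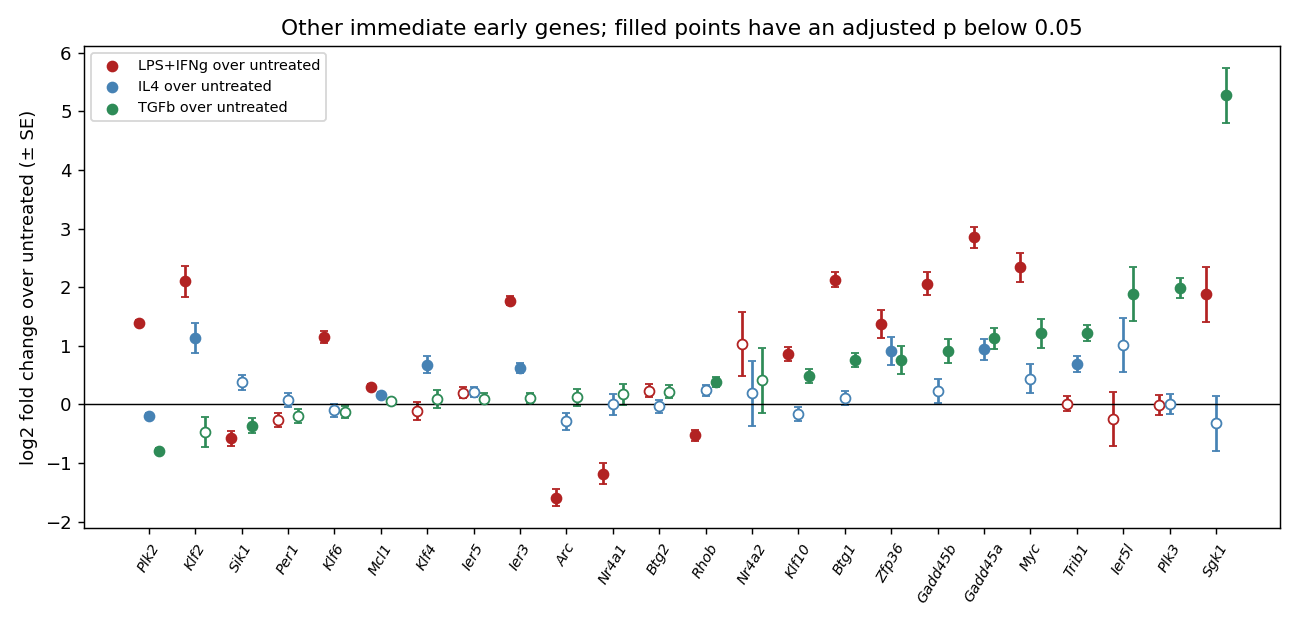
Log2 fold change over untreated cells (y axis) with its SE for 24 other immediate early genes, ordered by the TGFb value, for LPS+IFNg, IL4 and TGFb; filled points have an adjusted p below 0.05. LPS+IFNg points reach from -1.59 for Arc to 2.85 for Gadd45a, and the TGFb point of Sgk1, at 5.27, stands above all others.

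Stress factors related to Atf3 and genes known as AP-1 or EGR1 targets were also counted. Of 12 CREB, ATF and CEBP genes, 10 rose and 1 fell with LPS+IFNg, 4 rose with IL4, and 3 rose and 5 fell with TGFb, with medians of 0.70, 0.09 and -0.12; of all genes 29.5% were higher with LPS+IFNg and 9.89% with IL4, and 23.4% were lower with TGFb. Atf4, an activator of Atf3 in amino acid stress, had 4762 ± 390 with LPS+IFNg and 1407 ± 44.4 with TGFb, against 2547 ± 106 untreated. With IL4, where Atf3 rose, Atf4 was not called (log2 -0.01, adjusted p = 0.916). Ddit3, the CHOP gene, had 1269 ± 471 with LPS+IFNg, 326 ± 17.6 with IL4 and 119 ± 3.87 with TGFb, against 239 ± 12.7 untreated. Of 11 textbook targets, 6 rose with LPS+IFNg, 3 rose and 1 fell with IL4, and 5 rose and 2 fell with TGFb, with medians of 0.36, 0.08 and 0.15, against 58.9%, 17.2% and 47.5% of all genes called. Plau, the urokinase gene, rose with all 3, to 11790 ± 2410 with LPS+IFNg, 7395 ± 523 with IL4 and 14910 ± 803 with TGFb, against 6014 ± 250 untreated. Ccnd1, the cyclin D1 gene, fell with TGFb (880 ± 28.5), against 1698 ± 87.1 untreated. Of 11 heat shock genes, which rise along with immediate early genes when cells are handled roughly or warmed, 5 fell with LPS+IFNg and none rose, 3 rose with IL4, and 2 rose and 4 fell with TGFb, with medians of -0.22, 0.13 and -0.13. The LPS+IFNg count is below the 58.9% of all genes called and the TGFb count near the 47.5%.

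The genes with the most similar profile were named for each member, by Pearson's r of log2(value + 1) over the 15 libraries, taking genes whose overall mean was 50 or more. These values describe libraries that share groups, depth and GC-rich shifts. Nearest to Fos were Mical1, Trem2 and Gnai2 (r = 0.977, 0.975 and 0.97), and Trem2, a microglial lipid receptor gene, had 1040 ± 149 with LPS+IFNg, 1714 ± 87.5 with IL4 and 2822 ± 200 with TGFb, against 1693 ± 55.1 untreated. Nearest to Egr3 were Ppp1r3b, Spp1 and Azin1, to Egr2 Pfkfb3, Sh3pxd2b and Rftn1, and to Fosl2 Prnp and Apbb2, with r from 0.964 to 0.978. Ier2 was nearest to Tsc22d4 (r = 0.986), followed by Lrfn4 and Zfp385a. Junb was nearest to Lzts2, 1700037H04Rik and Cited2, Jun to H2afj, Hist2h2aa1 and Mesdc1, and Jund to Apba3, Rpl36 and Scand1, with r from 0.924 to 0.952. Atf3 was nearest to Mocs2, Gapdh and Gm12070 (r = 0.959, 0.949 and 0.947).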

How the data were processed

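Messenger RNA was measured by sequencing in 15 libraries of ESdM, grouped by the stimulation in the labels: LPS+IFNg, IL4 and TGFb with 3 libraries each and untreated with 6. Replicate numbers follow accession order and only name libraries. Per the labels' protocols, 1 µg of total RNA extracted with TRIZOL was made into libraries with an Illumina TruSeq kit. The submitters' processing notes name TopHat2 2.0.3, Partek 6.6, R 3.0.2, DESeq2 and the build mm10; annotation, counting rule and use of strand are not given in the sources used here. Overlapping or antisense genes may thus share reads.

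The authors deposited a normalized signal per gene, read here as reads divided by 1 factor per library and floored at 1. Whole reads were recovered for 99.75% to 100% of the values above the floor, within 0.05 reads. All 15 value columns were used. A gene outside the table was not analysed here. The recovered reads are not known to be independent molecules.

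Groups were compared with limma 3.58.1 (R 4.3.3, empirical Bayes trend) on log2(value + 1), in 1 fit over the 15 libraries, for the 11138 genes that reached 10 in 3 or more libraries. Alternatives were rescaling to the same total, quantile normalization, pseudocounts of 0.5 and 5, no filter or a minimum of 50, only the groups compared, no trend, edgeR 4.0.16 and DESeq2 1.42.0 on recovered reads, each library left out, and the 3 shallowest left out. Added after seeing the data were a lowess correction for GC content, the GC-rich median as a covariate and 4 libraries left out. The fit was run on simulated data in which every group had the spread of the untreated libraries. That check does not cover the wider spread among the LPS+IFNg libraries. Gene positions, lengths and GC content are from GENCODE M21, in which 95.4% of the symbols had 1 position.

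The members and lists were chosen with earlier results of these data known. All members in the table are described. From each other list, up to 4 called genes per stimulus whose higher group averaged 50 or more were named by the moderated statistic. Arc, Aif1, Cd68, Tmem119, Csf1r, Cx3cr1, Vwf, Aldoc, Aldh1l1, Fosb, Fosl1, Hspa1a, Hspa1b and Hsp90ab1 were named after their values were seen. So were Gadd45a and Nab1 with TGFb, and Atf4 with IL4. For each member, the rule took the 3 genes with the highest correlation. Some genes taken by these rules are not reported here.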

Additional observations from a re-analysis of the deposited data

How the results depend on the processing

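No paired analysis was possible because the labels give the libraries no shared replicate numbers, and the numbers used here follow accession order.

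Of 54 member fold changes, 27 kept their direction and call under every alternative, as did 25 of the 33 called ones. With each library left out in turn, the number of members called was 6 to 7 for LPS+IFNg over untreated, 1 to 4 for IL4 over untreated, 6 to 8 for TGFb over untreated, 4 to 6 for LPS+IFNg over IL4, and 6 to 7 for LPS+IFNg or IL4 over TGFb. The other settings gave 5 to 7, 1 to 3, 5 to 8, 4 to 7, 6 to 8 and 6 to 7. For IL4 over untreated the count was 2 with only these groups in the fit, 3 with the GC covariate and 3 without the 4 libraries.

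Reversals were as follows. With the GC covariate, TGFb over untreated became -0.15 for Jun, -0.06 for Jund and 0.22 for Atf3, LPS+IFNg over TGFb became 0.17 for Jun, 0.46 for Junb and 0.96 for Jund (adjusted p = 0.00607, range 0.00607 to 0.98), IL4 over TGFb became 0.22 for Jund, IL4 over untreated became 0.02 for Egr3 and -0.09 for Ier2, and LPS+IFNg over untreated became 0.02 for Jun. The lowess correction gave 0.23 for Jund, LPS+IFNg over TGFb. Without the 4 libraries, LPS+IFNg over IL4 became -0.03 for Fosl2, -0.09 for Jund and -0.17 for Atf3. Without the 3 shallowest libraries, IL4 over TGFb was -0.07 for Jun, and IL4 over untreated 0.03 for Egr3 and -0.11 for Ier2. Quantile normalization gave -0.02 for Jun, IL4 over TGFb. Rescaling gave -0.03 and edgeR -0.06 for Ier2, IL4 over untreated. The cause was not tested.

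With each library left out in turn, log2 fold changes that changed sign ranged from -0.06 to 0.20 for Fosl2, LPS+IFNg over IL4, -0.26 to 0.00 for Jun, LPS+IFNg over untreated, -0.11 to 0.23 for Jun, IL4 over TGFb, -0.20 to 0.53 for Jund, LPS+IFNg over IL4, -0.16 to 0.34 for Atf3, LPS+IFNg over IL4, -0.68 to 0.08 for Egr2, LPS+IFNg over untreated, -0.25 to 0.07 for Egr3, IL4 over untreated and -0.08 to 0.23 for Ier2, IL4 over untreated.

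On recovered reads, edgeR called 6701 genes for LPS+IFNg, 2067 for IL4 and 5281 for TGFb over untreated. The minimum of 50 left Egr3 untested. Without IL4 replicate 2, 1139 genes were called for IL4 over untreated, against 1917 with it. The 9 LPS+IFNg reads of Egr3 and the single source of ES cells limit what these data resolve.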
